A study of Bos taurus with 3 samples.

Results

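KRT7, KRT8, KRT18 and KRT19 are the keratins that textbooks assign to simple, single-layered epithelia, and here they were followed in a stratified epithelium, the rumen lining of newborn Holstein calves. They were found by gene symbol, were chosen by name with earlier results of these data in view, UMI levels in epithelial cells included, and are 4 of the 27270 genes in the count matrices, under the identifiers ENSBTAG00000016165 (KRT7), ENSBTAG00000000836 (KRT8), ENSBTAG00000001517 (KRT18) and ENSBTAG00000004905 (KRT19). The group consists of 3 newborn calves of 1 breed, sampled on the day after birth, with 1 droplet library each. The tissue was rumen stripped of its outer muscle and digested with trypsin and a mixture of collagenases, dispase, hyaluronidase and DNase. Adult animals were not analysed here, so every comparison lies between cells of the same calves.

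Keratins build intermediate filaments from pairs of an acidic (type I) and a basic (type II) chain. KRT18 and KRT19 are type I chains, KRT7 and KRT8 are type II chains, and KRT8 with KRT18 is the classical pair of simple epithelia. The basal layer of stratified epithelia relies on KRT5 with KRT14 or KRT15, and cells that leave it for the spinous layer turn to keratins such as KRT4 and KRT6A. In the RefSeq gene table of assembly ARS-UCD2.0, KRT8 and KRT18 lie on 1 chromosome with 1 gene and no protein-coding gene between them, KRT7 lies on the same chromosome with 34 genes between it and KRT8, and KRT19 lies on another chromosome.

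Epithelial cells were barcodes with at least 10 unique molecular identifiers (UMIs, each standing for 1 captured RNA molecule) of KRT5, KRT14 and KRT15 together per 10000 UMIs, and with no UMI of PTPRC, PECAM1 or COL3A1. This gate held 4454, 8370 and 7498 cells of calves 1, 2 and 3, which is 20322 of the 24042 barcodes kept and of 31228 deposited. All 6 genes of an epithelial check list (EPCAM, CDH1, TP63, PERP, SFN and DSP) were detected in them, at a summed level of 17.5 to 24.8 UMIs per 10000. Summed levels of immune and endothelial markers in these cells reached at most 0.579 and 0.175 per 10000. The stromal markers reached 2.49 to 4.09 per 10000, most of it from the single gene DCN, with at least 1 UMI of 6 of those 7 genes (COL3A1 is at 0 by the gate). The kept cells had medians of 6486 to 10196 UMIs, and any pair of libraries shared 21 to 37 barcodes, at most 0.385% of either library.

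The 4 keratins were minor keratins of these cells. Together they made up 4.00%, 1.29% and 0.976% of the UMIs of the 7 keratins counted (these 4 with KRT5, KRT14 and KRT15) in calves 1, 2 and 3, or 2.09% ± 1.66 (SD, n = 3 calves). Each level below is the number of UMIs of a gene in every 10000, after summing the cells of 1 calf. Levels are not divided by gene length, because a 3′ library counts 1 tag per molecule, and the order between genes is an order of captured tags.

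KRT19, a short type I keratin that lacks a tail domain, was the most abundant of the 4 and the most variable between calves. Its level was 5.50, 1.05 and 0.613 per 10000 in calves 1, 2 and 3, a mean of 2.39 ± 2.71 (SD, n = 3). Calf 1 stood apart, with an 8.99-fold range between the highest and the lowest calf, and the mean without calf 1 was 0.829. KRT19 made up 74.8% of the UMIs of the 4 keratins in calf 1, against 42.1% and 39.9% in calves 2 and 3.

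KRT7, a type II keratin of ducts and glands, came next with 1.26, 0.698 and 0.580 per 10000, a mean of 0.844 ± 0.361 (SD, n = 3) and a 2.16-fold range. Calf 1 was again highest. KRT8 had 0.316, 0.309 and 0.204 per 10000, a mean of 0.277 ± 0.0629 with a 1.55-fold range, and was the most even of the 4 across calves. KRT18 had 0.285, 0.429 and 0.139 per 10000, a mean of 0.285 ± 0.145 with a 3.08-fold range, and here calf 2 was highest. KRT8 and KRT18 overlapped in level, since each was above the other in at least 1 calf. KRT19 and KRT7 overlapped across calves as well, although KRT19 was above KRT7 within each calf. KRT7 was above both KRT8 and KRT18 with no overlap between calves.

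The gate used KRT5, KRT14 and KRT15, so levels near its edge are given as a description. In cells just inside it, at 10 to 20 UMIs of these genes per 10000, KRT19 was at 1.49, 0.0924 and 0 per 10000 in 42, 61 and 61 cells of calves 1, 2 and 3. In cells just outside it, at 5 to 10 per 10000, KRT19 was at 2.60, 0.365 and 0.0437 in 29, 88 and 112 cells. KRT8 just inside the gate had no UMI in any of the 3 calves, and just outside it had 1, 5 and 2 UMIs.

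To compare shares of cells at equal depth, each epithelial cell was thinned at random to 2000 UMIs, which left out 138, 238 and 184 shallower cells of calves 1, 2 and 3. A KRT19 UMI was then found in 46.3%, 15.0% and 10.1% of cells, KRT7 in 21.4%, 13.0% and 11.3%, KRT8 in 5.70%, 5.67% and 3.98%, and KRT18 in 6.16%, 8.21% and 2.83%. Without thinning the shares were 76.2%, 31.6% and 26.3% for KRT19, 58.3%, 33.1% and 33.4% for KRT7, 18.4%, 13.7% and 12.0% for KRT8 and 20.0%, 20.9% and 10.1% for KRT18. In thinned endothelial cells KRT19 was found in 9.09%, 0.330% and 0% and KRT7 in 2.27%, 0.660% and 0% of cells. The 9.09% of calf 1 stands for 4 of 44 cells. The median depth before thinning was 10203, 6642 and 7898.5 UMIs in epithelial cells and 4371.5, 4014 and 5059 UMIs in endothelial cells.

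The UMIs of these keratins were unevenly spread over epithelial cells. The variance of the thinned KRT19 counts was 2.93, 1.85 and 1.87 times their mean in calves 1, 2 and 3, against medians of 1.15, 1.02 and 1.02 for genes within 1.5-fold of the same mean. The ratio of KRT19 exceeded that of 97.5%, 99.2% and 99.6% of those genes. For KRT18 the ratio was 1.33, 1.40 and 1.19, for KRT8 1.2, 1.24 and 1.18, and for KRT7 1.16, 1.15 and 1.11. Against genes within 1.5-fold of their own means, KRT18 exceeded 98.8%, 98.9% and 98.3% and KRT8 98.2%, 98.3% and 97.9%. KRT7 exceeded 91.2%, 95.7% and 94.6%. Single cells reached 17 thinned KRT19 UMIs in calf 1, 10 in calf 2 and 12 in calf 3.

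Outside the epithelium few UMIs of the 4 keratins were counted. The other classes were endothelial cells (PECAM1 with at least 2 other endothelial markers, 850 cells), fibroblasts (COL3A1 with at least 2 other stromal markers, 258 cells), stromal cells with at least 10 ACTA2 UMIs per 10000 (90 cells, from calves 2 and 3 alone) and immune cells (PTPRC with at least 2 other immune markers, 414 cells). Over all calves, endothelial cells held 7 KRT7, 3 KRT8, 3 KRT18 and 13 KRT19 UMIs. Fibroblasts held 4 KRT19 UMIs and 1 of KRT8, with none of KRT7 or KRT18. Per 10000 UMIs, KRT19 was at 0.332, 0.0123 and 0.0105 in endothelial cells of calves 1, 2 and 3 and at 0.594, 0.106 and 0.0264 in fibroblasts, where calf 1 had 7 cells. The gate set this contrast, and it was not tested.

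**Figure D1:**
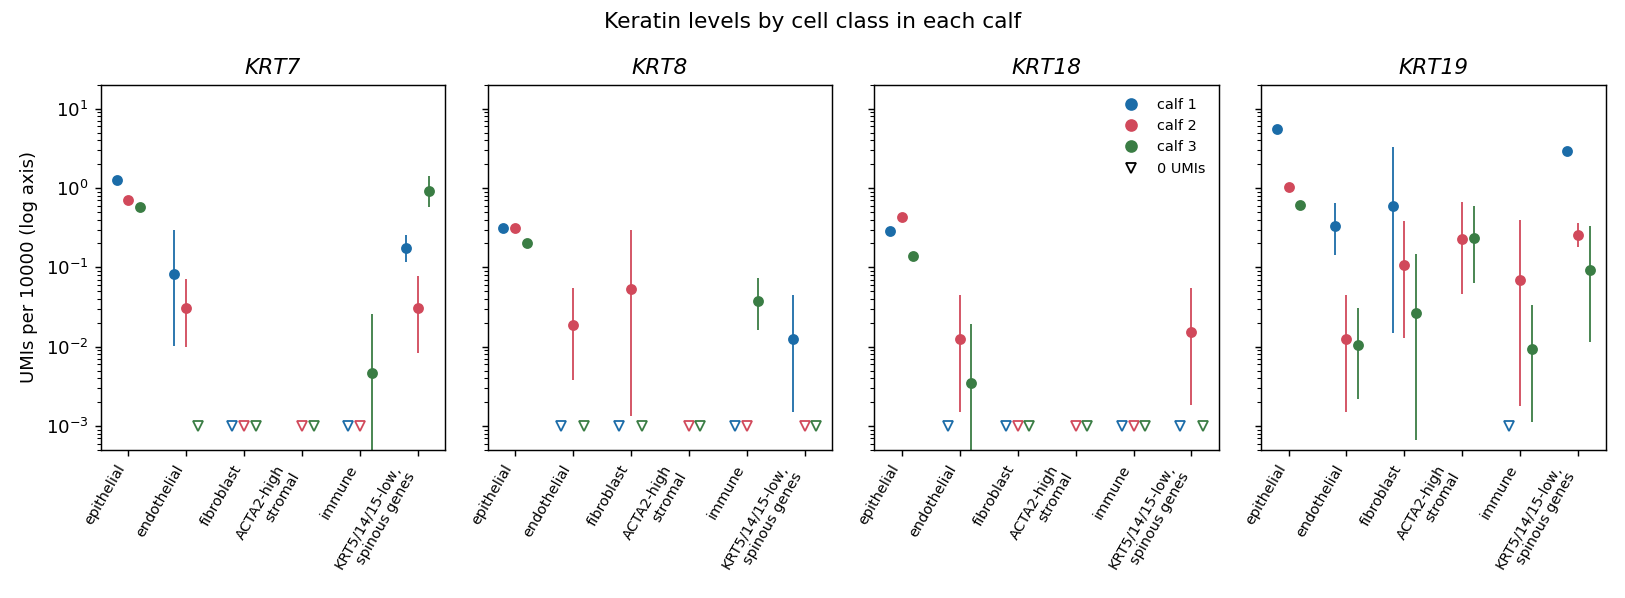
Level of each keratin in UMIs per 10000 (log axis) by cell class, 1 point per calf with the exact 95% Poisson interval, which covers counting error only; open triangles at the bottom stand for 0 UMIs and have no place on the axis. KRT19 in epithelial cells was 5.50 in calf 1 against 1.05 and 0.613 in calves 2 and 3, while endothelial cells held 13 KRT19 UMIs in all.

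As background, free RNA of broken cells enters all droplets of a library, and its genes then keep 1 ratio. Endothelial cells held 2058 UMIs of KRT5, KRT14 and KRT15, and at the ratio of the epithelial cells of the same calf these would come with 8.07 KRT7, 3.03 KRT8, 3.1 KRT18 and 13 KRT19 UMIs, next to the 7, 3, 3 and 13 counted. By calf the counts lay on both sides of the ratio. KRT7 had 2, 5 and 0 UMIs in calves 1, 2 and 3 where 0.938, 3.13 and 4.01 would come, and the 0 of calf 3 allows at most 3.69 by its exact 95% Poisson interval. KRT19 had 8, 2 and 3 where 4.12, 4.68 and 4.23 would come. The source of these UMIs was not tested. In immune and ACTA2-high stromal cells the counting interval of 1 keratin lay above that ratio. Immune cells held 8 KRT8 UMIs (exact 95% Poisson interval 3.45 to 15.8, counting error only) where 1.25 would come with their 932 basal keratin UMIs, all 8 in calf 3. ACTA2-high stromal cells held 7 KRT19 UMIs (2.81 to 14.4) where 0.564 would come with 123. None of the 4 keratins passed the filter on low counts in endothelial cells against fibroblasts or in ACTA2-high stromal cells against fibroblasts, so no difference between those classes was tested; of the genes that passed, 32.3% of 4331 and 16% of 2792 were called by edgeR.

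Within single epithelial cells the 4 keratins were found together more often than independence gives. The excess over independence was largest for the classical pair, but its ceiling differs between pairs. KRT8 and KRT18 were both detected in 43, 89 and 18 thinned cells of calves 1, 2 and 3, where the product of their shares gives 15.2, 37.9 and 8.24. The ratio of observed to expected cells was 2.84, 2.35 and 2.19, a mean of 2.46 ± 0.338 (SD, n = 3), and its counting interval lay above 1 in each calf. For KRT18 with KRT19 the ratio was 1.59 ± 0.464, for KRT8 with KRT19 1.51 ± 0.298, for KRT7 with KRT8 1.39 ± 0.232, for KRT7 with KRT18 1.39 ± 0.0995 and for KRT7 with KRT19 1.23 ± 0.0804. In calf 3 the counting intervals of KRT7 with KRT8, KRT7 with KRT18 and KRT8 with KRT19 included 1.

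**Figure D2:**
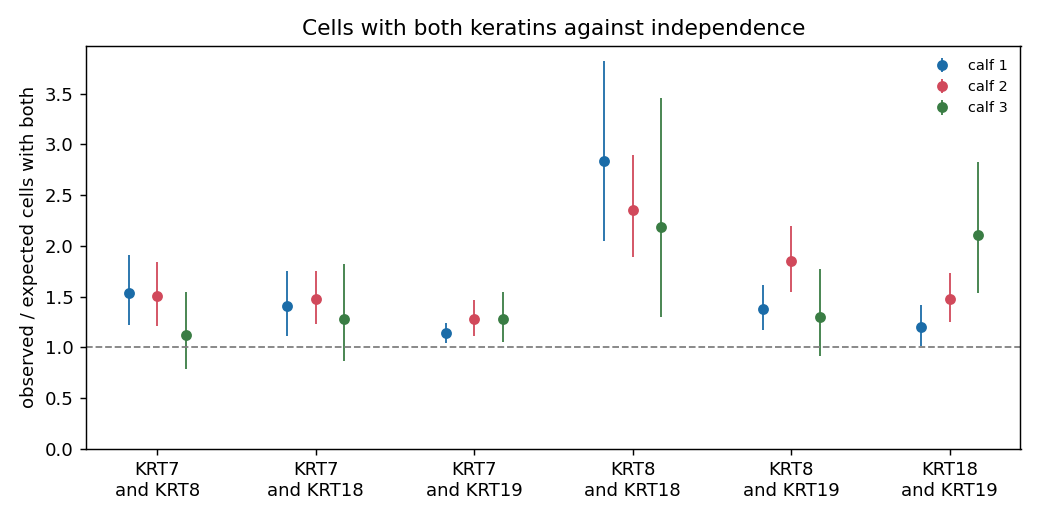
Observed over expected number of thinned epithelial cells with a UMI of both keratins, for the 6 pairs, 1 point per calf with the exact 95% Poisson interval of the observed count; the dashed line marks independence. KRT8 with KRT18 lies highest in each calf, at 2.84, 2.35 and 2.19, and all 18 points lie above 1. KRT18 with KRT19 is at 2.11 in calf 3. The ceiling of the ratio falls as the commoner keratin is found in more cells, so heights are not directly comparable between pairs.

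Cells with a UMI of at least 3 of the 4 keratins were rare. All 4 were found in 11, 6 and 2 cells of calves 1, 2 and 3, where independence gives 1.50, 0.740 and 0.0943, and exactly 3 in 102, 73 and 20 cells, where it gives 54.9, 29.7 and 7.09. None of the 4 was found in 40.4%, 66.6% and 75.1% of cells at this depth, which does not show that those cells lack them. Pearson correlations of log2(1 + UMIs per 10000) across cells stayed small, with means over calves from 0.0400 for KRT7 with KRT8 to 0.0870 for KRT8 with KRT18. In calf 3, r was 0.0388 for KRT8 with KRT18 and 0.0534 for KRT18 with KRT19. Among 3018 or 3019 genes found in at least 5% of cells of each calf, KRT7 ranked 76th for KRT8, 64th for KRT18 and 27th for KRT19. KRT19 ranked 73rd for KRT7, 9th for KRT8 and 40th for KRT18. KRT8 and KRT18 were below 5% in calf 3 and have no rank. The 99th percentile of mean r was 0.0531 for KRT8 and 0.0590 for KRT18.

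To ask which genes accompany KRT8, thinned epithelial cells with and without a KRT8 UMI were summed per calf, 246 against 4070, 461 against 7671 and 291 against 7023 cells, and the sums were fitted in edgeR (quasi-likelihood, calf as block) with Benjamini-Hochberg adjustment over all genes tested. Here, and in the other edgeR comparisons, levels are CPM, the counts of these sums scaled to a common total, and differences are log2 values with the SE. KRT18, KRT19 and KRT7 all rose in KRT8-positive cells, where 5.19% of the 9691 genes tested were called, 1.84% as higher and 3.35% as lower. KRT8 itself was left out. Because results of these cells were in view when the keratins were chosen, these tests are no independent support for joint expression.

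KRT18 was at 95.5, 124 and 30.9 CPM in the KRT8-positive cells of calves 1, 2 and 3 and at 31.4, 44.5 and 14.7 CPM in the KRT8-negative cells. It was higher in 3 of 3 calves, by 1.41 ± 0.144 (log2 difference ± SE, adjusted p = 3.81e-16). KRT19 was at 809, 210 and 91.1 CPM against 519, 103 and 65.7 CPM, higher by 0.70 ± 0.0893 (adjusted p = 5.77e-11). KRT7 was at 209, 107 and 70.4 CPM against 126, 72.9 and 63.3 CPM, higher by 0.49 ± 0.114 (adjusted p = 0.00128). The KRT7 call was lost without calf 1 (0.36, adjusted p = 0.194) and without calf 2 (0.46, adjusted p = 0.0830). Among cells with at most 5% mitochondrial UMIs the KRT7 difference was -0.010 (adjusted p = 0.994) and that of KRT19 0.31 (adjusted p = 0.110). With 2 KRT8 UMIs as the gate they were -0.097 (adjusted p = 0.986) and 0.11 (adjusted p = 0.955), and the KRT7 call was also lost with DESeq2 (0.48), at 1000 UMIs a cell (0.25) and without spinous cells (0.35).

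The genes most raised with KRT8 by the naming rule were PLAC8 (1.70 ± 0.127, 127 against 37.9 CPM), KRT18, RGS4, a regulator of G-protein signalling (1.32 ± 0.131), CD24, a surface glycoprotein (1.15 ± 0.186), and DCN (1.02 ± 0.0699). CKAP4 followed with 0.99, HPGD, which degrades prostaglandins, with 0.94, the chemokines CXCL3 and GRO1 with 0.92 and 0.87, and the metallothionein MT2A with 0.82. DCN, the collagen-binding proteoglycan decorin, is a fibroblast marker, and it was at 755 ± 139 CPM (SD, n = 3 calves) in KRT8-positive and 363 ± 89.4 CPM in KRT8-negative epithelial cells. DCN made up most of the stromal marker sum of epithelial cells, 2.49 to 4.09 per 10000. Endothelial cells held that list at 0.374 to 0.520 per 10000 and immune cells at no more than 0.211. Of the other stromal markers only 1, COL5A2, passed the filter on low counts, at -1.19 (adjusted p = 0.556), and the part of stromal RNA in the DCN difference was not tested.

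The genes most lowered with KRT8 were IL1R2, the decoy receptor of interleukin-1 (-2.11 ± 0.128, 57.0 against 226 CPM), KRT4, a keratin of upper layers (-1.81 ± 0.0841, 268 against 960 CPM), ENSBTAG00000039289 (-1.79), LYPD2 (-1.78) and IGFBP3, which binds insulin-like growth factors (-1.76 ± 0.106). Of the 8 spinous genes tested, 5 fell and none rose. They were KRTDAP (-0.71), KRT6A (-0.97), KRT4, the protease inhibitor SPINK5 (-2.89) and A2ML1 (-3.01). The median over the 8 was -0.97, beside -0.0025 over all genes tested.

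Of 23 genes tested that often accompany simple-epithelium keratins elsewhere, 1 rose (CD24) and 5 fell, where 1.84% of all genes tested rose and 3.35% fell, among them S100A11 (-0.39) and TM4SF1 (-0.51), with a median of -0.19. Of the 16 mitotic genes none passed the test in either direction. Of the 16 S-phase genes 5 fell and none rose, with RRM2 lowest at -1.76 (adjusted p = 3.98e-05). Of 3 immune markers tested BOLA-DRA fell (-2.30), of 11 genes that anchor basal cells 3 fell, and of 16 desmosome and keratin-binding genes 2 fell, with none raised in these lists.

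Genes of a dissociation list and the mitochondrial share also differed with KRT8. Of 20 genes known to respond to cell dissociation, 9 rose and 1 fell, with a median of 0.23, where 1.84% of all genes tested rose and 3.35% fell. MYC (0.38), IER3 (0.36) and FOS (0.32) were among the raised, and HSPA1A fell (-0.56, adjusted p = 4.68e-12). The summed level of the list was 102, 137 and 176 per 10000 in KRT8-positive cells of calves 1, 2 and 3 and 88.6, 115 and 160 in KRT8-negative cells. The median mitochondrial share was 4.59%, 4.76% and 4.50% in KRT8-positive against 5.39%, 5.69% and 5.71% in KRT8-negative cells. The part of either in the differences above was not tested.

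The same comparison by KRT19 set 1997, 1222 and 738 positive against 2319, 6910 and 6576 negative cells of calves 1, 2 and 3. KRT8, KRT18 and KRT7 rose with it, each in 3 of 3 calves, where 2.57% of the 9680 genes tested were called, 0.733% as higher and 1.84% as lower. KRT8 was at 44.1, 58.9 and 29.1 CPM against 22.4, 27.9 and 21.5 CPM, higher by 0.89 ± 0.114 (adjusted p = 7.73e-08 by edgeR). KRT18 was at 42.8, 77.7 and 31.2 CPM against 28.5, 43.8 and 13.5 CPM, higher by 0.79 ± 0.107 (adjusted p = 3.15e-07). KRT7 was at 151, 96.6 and 79.3 CPM against 113, 71.1 and 61.8 CPM, higher by 0.39 ± 0.0705 (adjusted p = 0.000156). All 3 calls held without any 1 calf. Among cells with at most 5% mitochondrial UMIs that of KRT7 was lost (0.23, adjusted p = 0.402), and at 1000 UMIs a cell that of KRT18 (0.54, adjusted p = 0.109). The median mitochondrial share was 5.10%, 5.07% and 5.02% in KRT19-positive against 5.56%, 5.73% and 5.72% in KRT19-negative cells. Of 3 endothelial markers tested 2 fell (CLDN5 at -3.48), and of 3 immune markers BOLA-DRA fell (-1.42). The part of these in the keratin differences was not tested.

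PLAC8 (0.91), RGS4 (0.59), MT2A (0.51), HPGD (0.48) and DCN (0.46) were among the 10 genes most raised with KRT19, as they were with KRT8, and CA3, a carbonic anhydrase, rose by 0.41 ± 0.0397 from 798 to 1071 CPM. KRT18 was second among them. The other 3 were genes of mitosis or of DNA synthesis. CENPF, a kinetochore protein, was higher by 0.58 ± 0.0721, the topoisomerase TOP2A by 0.49 ± 0.0934 and TYMS, which makes thymidylate, by 0.47 ± 0.0943. Of the 16 mitotic genes 4 rose with KRT19 and none fell (CCNB1, CENPF, TOP2A and UBE2C), with a median of 0.35 beside 0.0057 over all genes tested. Of the 16 S-phase genes TYMS alone rose and none fell, with a median of -0.034. In the KRT8 comparison the median was -0.17 for the mitotic list and -0.45 for the S-phase list, and the difference between the comparisons was not tested.

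The genes most lowered with KRT19 were KRT6A (-1.15 ± 0.108), KRTDAP (-0.96 ± 0.116), IL1R2 (-0.93 ± 0.0709), the antimicrobial protein S100A7 (-0.76) and IGFBP3 (-0.75). Of 9 spinous genes tested, 5 fell and none rose, with KRT4 the least lowered of them at -0.19 ± 0.0454. Of the other keratins, 4 of 6 tested fell and none rose, among them KRT17 at -0.69 ± 0.0714 (adjusted p = 2.23e-10). Of the dissociation list 2 genes rose and 1 fell. Of 24 genes that accompany simple-epithelium keratins, 2 rose (CD24 and CLDN3) and 2 fell.

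**Figure D3:**
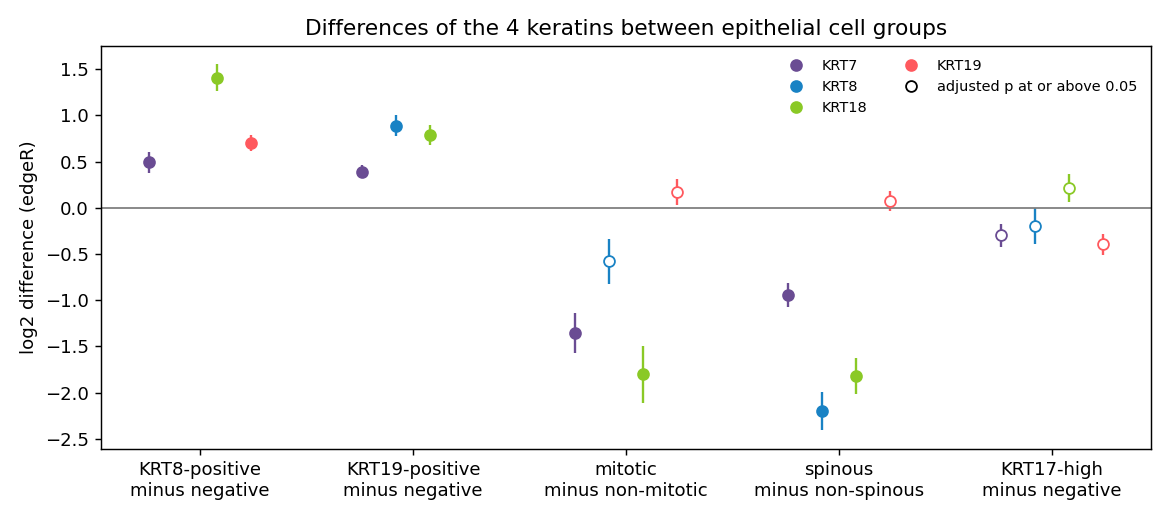
log2 difference of each keratin between groups of epithelial cells (edgeR, n = 3 calves), with bars for the SE; open points have an adjusted p at or above 0.05, and a keratin is not drawn in the comparison it defines. The 3 keratins drawn in each of the first 2 comparisons lie above 0, while KRT19 lies near 0 in the mitotic (0.17) and spinous (0.069) comparisons, where KRT7 and KRT18 lie at -0.95 or lower.

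Epithelial cells were compared next by the thinned UMIs of 5 spinous genes, KRTDAP, KRT6A, KRT4, A2ML1 and SPINK5. KRT4 dominated this sum. Its level was 10.6 per 10000 in epithelial cells (mean over calves), against 0.887 for KRT6A. The spinous list found in the count matrices summed to 2.64 to 18.4 per 10000, so the split follows KRT4 most. Cells with at least 3 of these UMIs (spinous, 1389, 1537 and 219 cells of calves 1, 2 and 3) were set against cells with none (1703, 3926 and 5880). KRT8, KRT18 and KRT7 fell in the spinous cells, in 3 of 3 calves each, where 18.4% of 9159 genes tested were called and 9.37% fell, and KRT19 did not pass the test. Of 16 S-phase genes 8 rose and none fell (median 0.43), where 8.99% of all genes tested rose. Of 16 mitotic genes 1 rose and none fell (median 0.39), and of 10 basal anchoring genes 2 fell and 1 rose. The place of the spinous group in the tissue was not tested.

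KRT8 was at 9.72, 9.43 and 18.3 CPM in spinous and 56.4, 44.3 and 23.6 CPM in non-spinous cells, a difference of -2.20 ± 0.207 (adjusted p = 3.60e-10 by edgeR). The spinous values rest on 27, 29 and 8 KRT8 UMIs. In calf 3 the counting interval of the spinous level, 0.0789 to 0.360 per 10000, included the non-spinous level of 0.236. KRT18 was at 9.0, 24.4 and 2.28 CPM against 57.3, 59.1 and 17.1 CPM (-1.82 ± 0.191, adjusted p = 4.41e-09), from 25, 75 and 1 spinous UMIs. Its difference was -2.67 without calf 2 and -1.35 without calf 1. KRT7 was at 96.1, 42.6 and 20.5 CPM against 154, 91.1 and 67.1 CPM (-0.95 ± 0.127, adjusted p = 7.31e-07), and among cells with at most 5% mitochondrial UMIs it was at -0.42 (adjusted p = 0.219). Of the 20 dissociation genes 16 fell in spinous cells and none rose, with a median of -0.79 beside -0.019 over all genes tested. DCN fell by 2.18 on the log2 scale, from 519 to 112 CPM, all 3 endothelial markers tested fell, and of 2 immune markers BOLA-DRA fell (-1.35). Their part in the keratin differences was not tested.

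KRT19 was at 577, 106 and 70.8 CPM in spinous and 511, 109 and 65.8 CPM in non-spinous cells (0.069 ± 0.107, adjusted p = 0.733). In the comparison by KRT19, KRT6A and KRTDAP were at -1.15 and -0.96. KRT4, which dominates the spinous sum, was there the least lowered of the spinous genes that fell. A spinous split without KRT4 was not made. On the log2(CPM + 1) scale, the spinous difference of KRT8 minus that of KRT19 was -2.59, -2.08 and -0.46 in calves 1, 2 and 3, a mean of -1.71 ± 1.11 (SD, n = 3). For KRT18 it was -2.16 ± 0.835 and for KRT7 -1.21 ± 0.485. The sign was the same in 3 of 3 calves for each, and an exact two-sided permutation test over 3 calves gives p = 0.25, the smallest it allows.

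The steps between these ends were graded for KRT7, KRT8 and KRT18 in calves 1 and 2. KRT8 was at 0.564, 0.249, 0.106 and 0.0702 per 10000 in calf 1 and at 0.443, 0.287, 0.110 and 0.0496 in calf 2, in cells with 0, 1 to 2, 3 to 9 and at least 10 spinous UMIs. KRT18 in calf 1 was at 0.573, 0.339, 0.106 and 0.0421 per 10000 in the same order of cells, and in calf 2 at 0.591, 0.481, 0.317 and 0.0372. KRT7 in calf 1 was at 1.54, 1.38, 1.06 and 0.688 in the same order. KRT19 in calf 1 was at 5.11, 5.22, 5.33 and 7.02, and in calf 2 at 1.09, 1.10, 1.04 and 1.13. Calf 3 had 48 cells in the highest step, with 2, 1, 0 and 9 UMIs of KRT7, KRT8, KRT18 and KRT19. All steps lie inside the gate on KRT5, KRT14 and KRT15. Cells below that gate with at least 20 spinous UMIs per 10000, described at the end, held KRT19 at 2.97, 0.258 and 0.0931 per 10000 in calves 1, 2 and 3. That is below every step of calves 1 and 2, and the contrast was not tested.

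**Figure D4:**
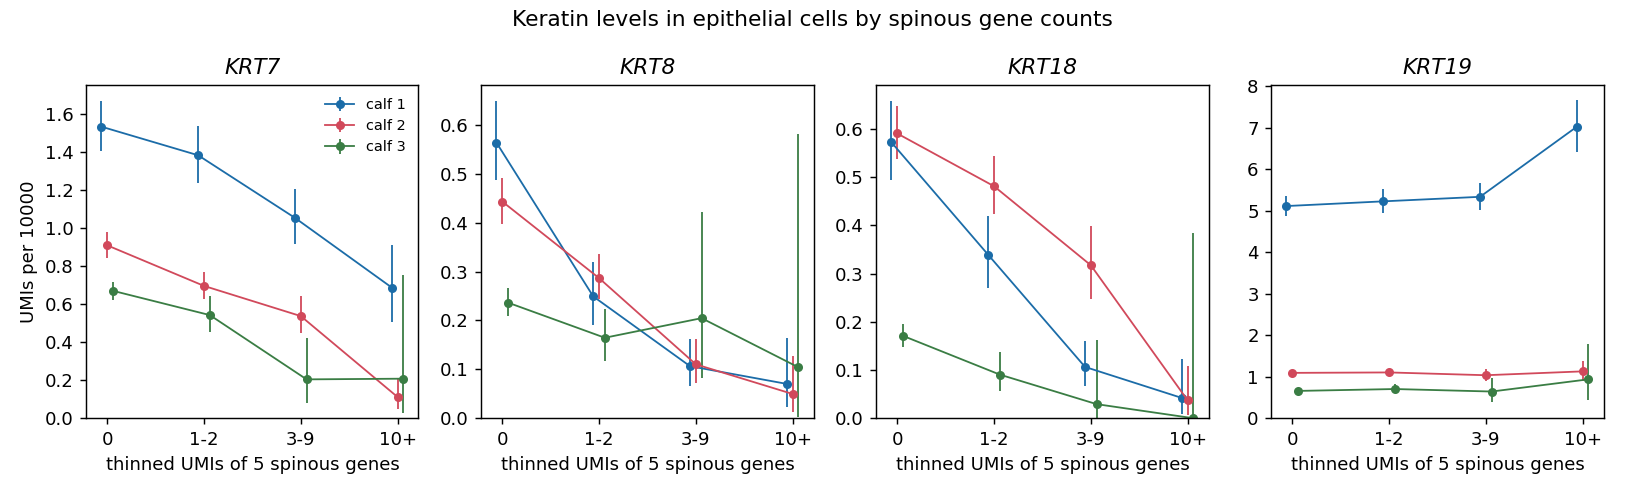
Level of each keratin (UMIs per 10000, linear axes that start at 0 and differ between panels) in thinned epithelial cells with 0, 1 to 2, 3 to 9 and at least 10 UMIs of 5 spinous genes, 1 line per calf with exact 95% Poisson intervals for counting error. KRT18 declines from 0.573 to 0.0421 in calf 1 and from 0.591 to 0.0372 in calf 2. Among these cells, all inside the keratin gate, KRT19 ends at 7.02 and 1.13, no lower than it began.

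Dividing cells were compared next, as cells with at least 3 thinned UMIs of 16 mitotic genes (671, 178 and 367 cells of calves 1, 2 and 3) against cells with none (3042, 7574 and 6243). KRT7 and KRT18 fell in mitotic cells, where 22.5% of 9647 genes tested were called and 11.3% fell. KRT18 was at 18.6, 14 and 0 CPM in mitotic and 39.6, 50.0 and 16.5 CPM in non-mitotic cells (-1.80 ± 0.312, adjusted p = 0.000111 by edgeR). The mitotic values rest on 25, 5 and 0 KRT18 UMIs in calves 1, 2 and 3. KRT7 was at 90.9, 16.9 and 19.1 CPM against 139, 76.8 and 66.9 CPM (-1.36 ± 0.214, adjusted p = 3.57e-05), from 122, 6 and 14 mitotic UMIs. Without calf 1, which had the most mitotic cells, the 2 differences were -2.87 and -2.18. Among cells with at most 5% mitochondrial UMIs the KRT18 call was lost (-1.27, adjusted p = 0.208). Of the 20 dissociation genes 14 fell in mitotic cells and 4 heat-shock genes rose (HSPH1, HSP90AA1, HSPA8 and HSPA1A), with a median of -1.01 beside -0.043 over all genes tested. DCN was at -1.65 and the mural marker MYL9 at -1.82, both called, and their part in the keratin differences was not tested.

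KRT8 was at 31.3, 11.2 and 20.4 CPM in mitotic against 33.9, 33.1 and 23.4 CPM in non-mitotic cells (-0.58 ± 0.243, adjusted p = 0.0914 by edgeR). With spinous cells left out, the difference of KRT8 was -1.0 (adjusted p = 0.0185). KRT19 was at 633, 160 and 84.5 CPM against 507, 106 and 66.0 CPM, which is 0.17 ± 0.138 (adjusted p = 0.414), although it was higher in 3 of 3 calves. With spinous cells left out it was -0.026 (adjusted p = 0.941).

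Between cells with at least 2 thinned KRT17 UMIs and cells with none, none of the 4 keratins passed the edgeR test, where 5.76% of 9746 genes did. KRT17 is a keratin of stressed and wounded epithelium. KRT19 was at 458, 83.2 and 53.1 CPM in KRT17-high against 543, 113 and 69.1 CPM in KRT17-negative cells, a difference of -0.40 ± 0.117 (adjusted p = 0.0551). The other adjusted p-values were 0.174 for KRT7 (-0.30), 0.610 for KRT8 (-0.20) and 0.464 for KRT18 (0.21). With unthinned counts both KRT19 (-0.56, adjusted p = 0.00558) and KRT7 (-0.48, adjusted p = 0.0171) passed, KRT19 also passed with no filter on low counts (-0.46) and with a gate of 3 KRT17 UMIs (-0.55), and with at most 5% mitochondrial UMIs KRT18 did (0.81, adjusted p = 0.0441).

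The high KRT19 level of calf 1 was found in each of these states. In calves 1, 2 and 3 it was 633, 160 and 84.5 CPM in mitotic cells, 511, 109 and 65.8 CPM in non-spinous cells and 577, 106 and 70.8 CPM in spinous cells. Animal and library cannot be told apart here, because each calf gave 1 library.

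By the correlation across thinned epithelial cells (mean Pearson r over 3 calves, among 3018 or 3019 genes detected in at least 5% of the cells of each calf), the pattern most like KRT7, KRT8 and KRT18 was that of DCN, with r of 0.115, 0.145 and 0.125. DCN was second for KRT19 (0.0876), after CA3 (0.0986), which was also second for KRT8 and KRT18. HPGD (0.0882) and CLDN1, a tight junction protein (0.0771), followed for KRT8. RPS3A, a ribosomal protein gene, followed for KRT18 (0.0811). Of the 20 genes most like each keratin, 15, 10, 10 and 13 were ribosomal protein genes for KRT7, KRT8, KRT18 and KRT19.

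The genes least like KRT7, KRT8 and KRT18 were S100A12, an alarmin (-0.145, -0.140 and -0.137), the mitochondrially encoded COX1 (-0.120, -0.111 and -0.113) and ENSBTAG00000036116 (-0.107, -0.111 and -0.118). For KRT19 the lowest were IL1R2 (-0.112), KRT14 (-0.105), which belongs to the gate, and COX1 (-0.104). Of the 20 genes least like each, 8, 4, 4 and 6 were named mitochondrial genes in the same order. The cells of a calf share a library, the counts are sparse, and values of this size are a description of order and no more.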

How the data were processed

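Rumen cells of 3 newborn calves were analysed, 1 droplet library per calf. The authors deposited raw UMI counts per gene and barcode from Chromium 3′ libraries, made with Cell Ranger 3.1.0 (per the submitters' processing notes). These are not normalized, and the barcodes listed include some outside the limits below. Total counts were 82263092, 89803289 and 106145091 in 7529, 12043 and 11656 barcodes of calves 1, 2 and 3.

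Barcodes with 500 to 4000 genes, at most 50000 UMIs and at most 40% UMIs of the named mitochondrial genes were kept. A score against simulated doublets then removed 191, 908 and 879 barcodes, at 0.8% per 1000 barcodes. Cells were classed by the gates in the text. Epithelial cells were thinned to 2000 UMIs for the comparisons among them, while the endothelial, fibroblast and ACTA2-high comparisons used unthinned counts. Counts were summed per calf and cell group (at least 5 cells), and tested with edgeR 4.0.16 (TMM, filterByExpr, quasi-likelihood, calf as block, threshold 0.05) in R 4.3.3. Both groups of a comparison come from the same animals, so calves pair them. Genes that defined the cells or a split were left out before adjustment. SEs are the log2 difference divided by the root of its F. The script was tested on simulated data. The calves were separate animals, and cells were not used as replicates.

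Named genes were the 4 keratins, the top 5 and bottom 3 correlated genes per keratin, and the 10 most raised and 5 most lowered in the KRT8 and KRT19 comparisons (adjusted p under 0.05, 1 direction in 3 calves, at least 50 CPM). Lists are given by counts, and 1 correlated gene is not reported here. List members named beyond the largest and smallest difference of a list were chosen after their values were seen. The keratins and the lists were chosen with earlier results of these data known. Alternatives were DESeq2 1.42.0, no block, no filter, other depths and gates, no doublet removal and leaving out each calf. Poisson intervals and shares cover counting error only.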

Additional observations from a re-analysis of the deposited data

Results flagged for a closer look

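KRT19 was also counted in cells that the comparisons did not use. These 220 cells lay below the gate on KRT5, KRT14 and KRT15, had at least 20 UMIs of the 5 spinous genes per 10000 and no PTPRC, PECAM1 or COL3A1 UMI, a class set after the data were seen. In calf 1 they held KRT19 at 2.97 UMIs per 10000 (476 UMIs in 96 cells, exact 95% Poisson interval 2.71 to 3.25, counting error only), and in calf 2 at 0.258 (34 UMIs in 102 cells), both above the limit that a count of 0 allows. Calf 3 held 2 KRT19 UMIs in 22 cells. Epithelial cells inside the gate held KRT19 at 5.50, 1.05 and 0.613 per 10000 in calves 1, 2 and 3, higher in each calf, and this contrast was not tested. KRT8 and KRT18 held 2 UMIs each over all 220 cells, and KRT7 held 52, of which 20 came from 1 cell of calf 3.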

How the results depend on the processing

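Of 215 refits of 18 keratin differences, 177 kept their direction and their side of the threshold, 22 lost a call, 6 gained one and 10 changed sign. Of 94 other values of level, share and joint detection, 91 moved by less than 1 SD between calves. Part of these 91 are means that leave out 1 calf. With 3 calves such a mean cannot move by 1 SD, so that part does not test stability. The mean KRT19 level, for example, went from 2.39 to 0.829 without calf 1, a move within its SD of 2.71. The values that moved by more than 1 SD were the ratios of KRT7 with KRT18 (1.81 at 1000 UMIs a cell, 1.56 with another thinning seed) and of KRT7 with KRT19 (1.38 at 1000 UMIs). The low counts of KRT8 and KRT18 limit all of these. The cause of the changes below was not tested, unless fewer cells or counts enter by construction.

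Without the replicate block, which pairs the cells of 1 calf, the fits called 0 genes for KRT8 (282 at an unadjusted p under 0.05), 0 for KRT19 (35), 628 for mitotic, 48 for spinous, 2 for KRT17 and 241 for ACTA2-high cells. Without the block the differences lost their calls in the KRT8 comparison (KRT7 0.51, KRT18 1.44, KRT19 0.64), the KRT19 comparison (KRT7 0.40, KRT8 0.88, KRT18 0.80), the mitotic comparison (KRT7 -1.23, KRT18 -1.89) and the spinous comparison (KRT7 -0.86, KRT8 -1.92, KRT18 -1.61).

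DESeq2 called 176, 66, 1211, 640, 222 and 147 genes in the KRT8, KRT19, mitotic, spinous, KRT17 and ACTA2 comparisons, and gave KRT7 0.48 in the KRT8 comparison, not called. It split the spinous calls into 382 higher and 258 lower (edgeR 823 and 858) and the KRT17 calls into 191 and 31 (edgeR 403 and 158). Thinning to 1000 UMIs gave 151, 80, 1167 and 835 genes in the first 4, 680 in endothelial and 147 in ACTA2-high cells, and gave KRT7 0.25 with KRT8 and KRT18 0.54 with KRT19, neither called. Unthinned counts gave 1194, 742, 3852, 3256 and 2115 genes in the first 5, and in the KRT17 comparison KRT7 -0.48 and KRT19 -0.56, both called, and KRT18 -0.13. With no filter on low counts 967 genes were called for KRT17, 2418 for endothelial and 730 for ACTA2-high cells, and KRT19 was called in the KRT17 comparison (-0.46).

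A higher gate (2 UMIs for KRT8) gave 141 genes, KRT7 -0.097 and KRT19 0.11, and for KRT17 gave KRT19 -0.55, called. Without doublet removal KRT19 was -0.021 in spinous cells and KRT18 -0.20 in KRT17-high cells. Added after seeing the data, leaving out the other state gave 148, 98 and 317 genes for KRT8, KRT19 and KRT17, KRT7 0.35 with KRT8, and in mitotic cells KRT8 -1.0 (called) and KRT19 -0.026. The limit of 5% mitochondrial UMIs, also added, gave 68, 41, 430, 227 and 100 genes. It left KRT7 at -0.010 and KRT19 at 0.31 with KRT8, KRT7 at 0.23 with KRT19, KRT18 at -1.27 in mitotic cells, KRT7 at -0.42 and KRT19 at -0.030 in spinous cells, and KRT7 0.031, KRT8 0.57 and KRT18 0.81 (called) in KRT17-high cells.

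Leaving out 1 calf at a time gave 228 to 382 genes for KRT8, 146 to 273 for KRT19, 1373 to 1937 for mitotic, 811 to 1613 for spinous, 389 to 756 for KRT17 and 913 to 2256 for endothelial cells. KRT7 ranged from 0.36 to 0.60 with KRT8, and KRT19 from -0.015 (without calf 1) to 0.16 in spinous cells. ACTA2-high cells came from 2 calves, so leaving out either could not be fitted.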
